A study of Homo sapiens with 22 samples.

Results

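Spheres of neuroblastoma cells in which the CASC15-003 transcript was knocked down were compared with spheres in which the CASC15-004 transcript was knocked down. The 4 libraries were chosen by their labels, 2 of CASC15-003 knockdown (sh003) and 2 of CASC15-004 knockdown (sh004), out of 22 in the series. All cells compared were SH-SY5Y, an established line grown from the bone marrow metastasis of a childhood neuroblastoma. Each culture stably carried a lentiviral shRNA kept under puromycin selection and was grown in sphere-forming medium, and 1 sphere library of cells with a scrambled shRNA that matches no mammalian transcript served as control. The sh004 shRNA 2 library is labelled as a sphere in its title alone, since its labels give no culture. Both libraries of a knockdown carry different shRNAs, shRNA 1 and shRNA 2, so the spread between them includes any difference between shRNAs. Nothing in the labels says whether the cells were clones or pools, how long the spheres grew, or whether the libraries came from separate cultures, and p-values therefore measure only the spread between these libraries. The same shRNAs were sequenced in 15 monolayer libraries, in serum at day 0 or after 7 days of retinoic acid, and these are used further on.

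The 4 shRNA targets are shown because they define the groups. In the reference annotation on GRCh38 all of them matched exons of CASC15 on the + strand of chromosome 6, and no transcript outside CASC15 and no antisense match was found. The capitals mark bases 14 to 20 of each target, which face bases 2 to 8, the seed, of a guide complementary to the whole target. Each target has 21 bases.
sh003 shRNA 1: ctagcactgacctCCTTCATt
sh003 shRNA 2: ctttccatcagccAACAATAt
sh004 shRNA 1: caggctgttcccaGGGATTTa
sh004 shRNA 2: taggaataccttaCATCCAAt
The sh003 targets lie at chr6:21668702-21668722 and chr6:21668743-21668763, in exon 3 of the annotated transcript CASC15-205 and exon 2 of CASC15-206. The sh004 targets lie far downstream, at chr6:22146977-22146997 and chr6:22146898-22146918, in exon 1 of CASC15-204 and of CASC15-202. No annotated transcript held targets of both knockdowns, and the 4 seeds differ from each other. How the study's transcript numbers map onto this annotation is not given in the sources used here.

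CASC15 is a long non-coding RNA gene of a neuroblastoma susceptibility locus, next to SOX4, which encodes a transcription factor of the developing nervous system, and to the antisense RNA gene NBAT1. Neuroblastoma cells derive from the sympathoadrenal lineage of the neural crest and carry the noradrenaline pathway and its regulators. Spheres are free-floating aggregates, used to select for growth without attachment, and oxygen, nutrients and cell contact differ within them from those in a monolayer.

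Levels are RPKM, reads per kilobase of gene and M (mega, the SI prefix) assigned reads, recomputed with each library's own total because the deposited sphere values divide by totals that change from gene to gene. The spheres held 27.77 to 62.08 M assigned reads. Differences are sh003 minus sh004 on the scale of log2(RPKM + 0.5), and a fold is 2 to the power of such a difference, which understates the change of genes near 0. A gene is called where limma's adjusted p was under 0.05. In bulk RNA, fewer cells of a type and less RNA per cell cannot be told apart.

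CASC15 itself was low in every sphere library and did not separate the knockdowns. It stood at 2.15 RPKM in the control, at 1.63 and 2.46 in the sh003 spheres (shRNA 1 first, here and below) and at 1.59 and 1.60 in the sh004 spheres. All 4 knockdown values lie near the control, with 1 of the sh003 values above it. The difference was 0.26 ± 0.28 (SE; adjusted p = 0.48), with a 95% interval from -0.43 to 0.95, and became -0.45 (adjusted p = 0.23) with the trend on gene length removed. The gene total adds all CASC15 transcripts, so it does not show the level of either targeted transcript. SOX4 stood at 82.7 and 77.1 RPKM in sh003 and at 59.8 and 50.9 in sh004, against 67.5 in the control (difference 0.53 ± 0.19, adjusted p = 0.063). NBAT1 was too low to be tested. CHD7, a chromatin remodeller, was higher in sh003, at 16.7 and 14.6 RPKM against 8.91 and 7.71 (adjusted p = 0.019), with the control at 13.8. It is a long gene, and with that trend removed its difference fell from 0.88 to 0.11 (adjusted p = 0.72). USP36, a nucleolar deubiquitinase, had a difference of -0.01 ± 0.20 with an interval from -0.50 to 0.48, but -0.69 (adjusted p = 0.046) with the length trend removed. That of SOX9, a neural crest transcription factor, was -0.33 ± 0.27 (adjusted p = 0.36). SOX9 stood above the control's 3.15 RPKM in all 4 knockdown spheres, from 9.67 to 17.3.

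The libraries of a knockdown resembled each other more than those of the other knockdown. Over 14711 tested genes, 915 (6.22%) differed by more than 1 on the log2 scale between the sh003 libraries and 702 (4.77%) between the sh004 libraries. Across the knockdowns it was 24.0% and 28.4% for sh003 shRNA 1 and 34.9% and 38.6% for sh003 shRNA 2. The sh003 shRNA 1 spheres were thus nearer to the sh004 spheres, and this comes back in the inflammatory genes. Gene length moved with the knockdown: the median difference rose from -0.41 in the shortest of 5 equal length classes of genes to 0.69 in the longest. Against the control, both sh003 libraries were low in short genes and high in long ones, and both sh004 libraries the reverse. Some genes parted the control and both sh004 libraries from both sh003 libraries. The unnamed pseudogene ENSG00000240652 was at 41.5 RPKM in the control, at 67.8 and 40.0 in sh004 and at 1.68 and 1.25 in sh003, and 191 of all 63677 genes, 32 of 14030 pseudogenes among them, had the control and both sh004 libraries more than 1 log2 unit above both sh003 libraries, with 176 and 13 the other way. More genes parted both sh004 libraries from the control and both sh003 libraries by that margin. There 319 genes, 14 pseudogenes among them, had sh004 above, and 322 and 19 had it below. In the monolayers ENSG00000240652 was at 67.2 to 104 RPKM in the 4 batch 1 libraries and at 0.312 to 1.30 in the others. The spheres carry no batch label, and the part of length or of such a library difference in the results was not tested.

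A large share of the transcriptome differed between the knockdowns. Of the 14711 genes, 5865 (39.9%) were called, 3395 higher in sh003 (23.1%) and 2470 lower (16.8%), and the median difference of all genes was 0.127. These percentages are the background against which the counts of the main fit below are read. With the length trend of each library removed, a correction added after seeing the data, 1976 of the same 14711 were called higher and 2304 lower. List counts with that trend removed are read against these. List counts with a library left out have other backgrounds, which are not given beside them. The number of called genes depended strongly on single libraries. Without sh004 shRNA 2, 26 genes were called (5530 at an unadjusted p under 0.05), among them RGS4, CDKN1C and IGFBP3, and all other list members named below lost their call. Without sh003 shRNA 2 it was 2365 genes (5509 at an unadjusted p under 0.05) and without sh004 shRNA 1 2702. No gene was called when genes of low level were kept in the test, though 9153 then had an unadjusted p under 0.05, and the rotating totals of the deposited values left 366.

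**Figure D1:**
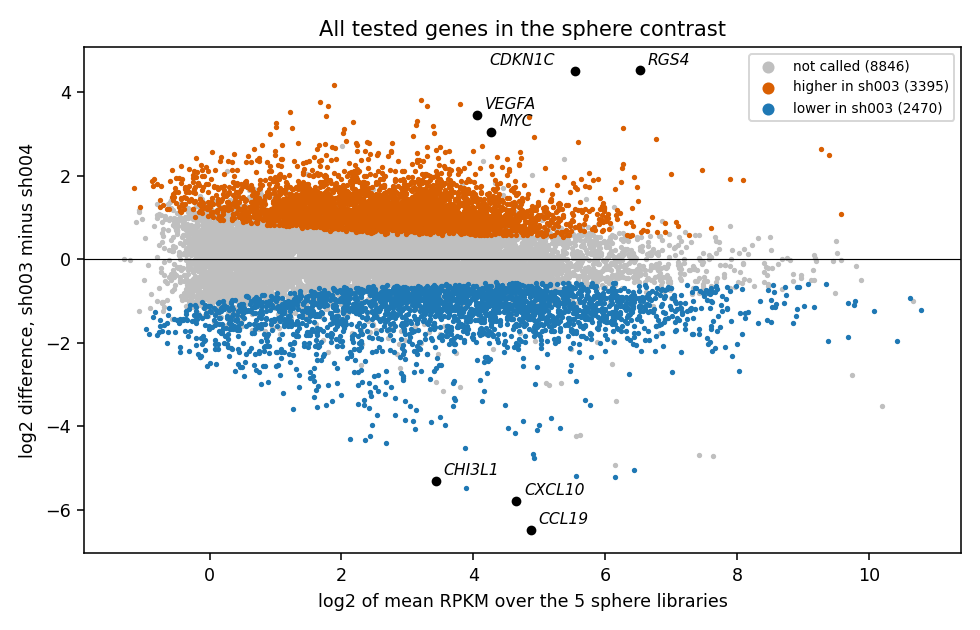
Difference between sh003 and sh004 spheres (vertical, log2) against mean level over the 5 sphere libraries (horizontal, log2 RPKM) for each tested gene, coloured by call. The named marker genes lie at the outer edge, RGS4 and CDKN1C near 4.5 and CCL19 at -6.49.

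The 7 marker genes are described first, with their level in every sphere library. RGS4, a GTPase-activating protein that shortens signalling from G-protein-coupled receptors, had the largest difference of those higher in sh003. It stood at 75.9 RPKM in the control, at 152 and 216 in sh003 and at 4.80 and 11.4 in sh004. The groups do not overlap, and the control lies between them. The difference was 4.52 ± 0.40, or 22.9-fold (adjusted p = 0.0082), and it ranged from 3.94 to 5.10 over the alternatives tried.

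CDKN1C, an imprinted inhibitor of cyclin-dependent kinases that restrains the cell cycle, had the same pattern. Its level was 35.2 RPKM in the control, 74.4 and 117 in sh003 and 3.54 and 3.75 in sh004, without overlap. The difference was 4.5 ± 0.26 (adjusted p = 0.0063). VEGFA, the main angiogenic growth factor and a gene induced by low oxygen, was at 4.30 RPKM in the control, 28.5 and 44.9 in sh003 and 3.32 and 2.35 in sh004. Here the sh003 spheres stood apart from the control and the sh004 spheres were close to it. The difference was 3.46 ± 0.29, or 11.0-fold (adjusted p = 0.0076).

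MYC, a transcription factor that drives growth, varied within sh003. It was at 23.8 RPKM in the control, at 18.6 and 48.1 in sh003 and at 3.58 and 2.83 in sh004. The sh003 values lie on both sides of the control and the sh004 values lie below all others. The difference was 3.05 ± 0.43 (adjusted p = 0.0088). On the deposited values its adjusted p was 0.061.

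CCL19, a chemokine that draws lymphocytes and dendritic cells through CCR7, had the largest difference of all those lower in sh003. It had 0 reads in the control, 16 and 2 reads (0.627 and 0.0927 RPKM) in sh003 and 3760 and 1478 reads (78 and 68.1 RPKM) in sh004. It was thus abundant in both sh004 spheres and near 0 in the other 3. The difference was -6.49 ± 0.34 (adjusted p = 0.0063). CXCL10, the interferon-inducible chemokine that draws T cells, was at 0.132 RPKM in the control, at 1.92 and 0 in sh003 and at 47.8 and 75.7 in sh004. The groups lie far apart, with sh003 shRNA 1 above the control. Its difference was -5.78 ± 0.70 (adjusted p = 0.0087).

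CHI3L1 encodes a secreted chitinase-like protein made under inflammation. It was below 0.1 RPKM in the control and both sh003 spheres and at 42.5 and 11.4 in sh004. The difference was -5.31 ± 0.58 (adjusted p = 0.0087). Without sh004 shRNA 2, the adjusted p of VEGFA, MYC and CXCL10 was 0.051 in each case. All 7 marker genes kept their direction under every alternative, and their adjusted p lay between 0.077 and 0.09 when genes of low level were kept.

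**Figure D2:**
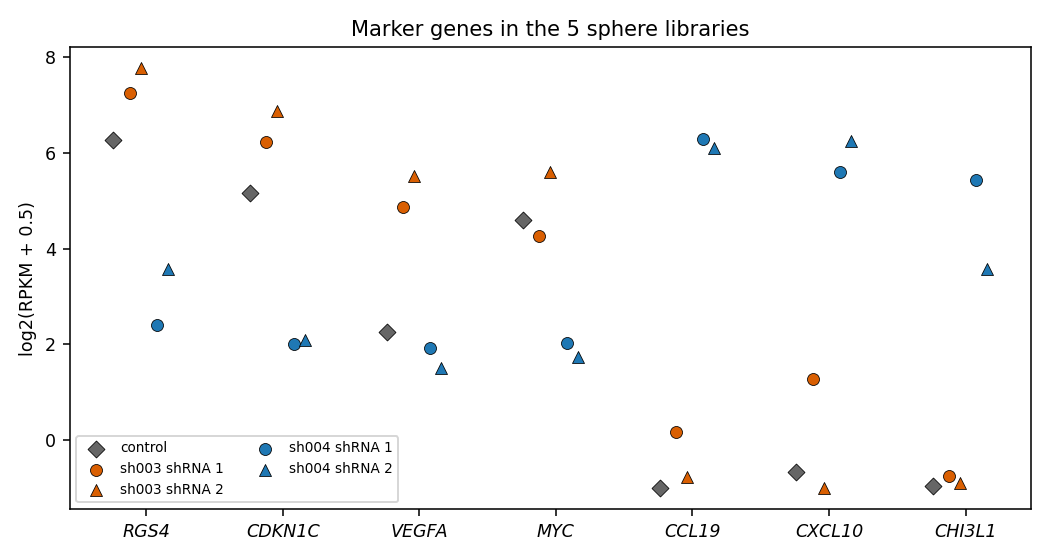
Level of the 7 marker genes (log2 of RPKM + 0.5) in each of the 5 sphere libraries, 1 point per library. RGS4, CDKN1C, VEGFA and MYC sit higher in both sh003 libraries and CCL19, CXCL10 and CHI3L1 in both sh004 libraries.

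The promoters of the chemokines CXCL10 and CCL19 are shown because these genes led the sh004 side. They hold 250 bases before the start, from RefSeq on GRCh38.p14, read on the gene's own - strand at chr4:76023498-76023747 and chr9:34691277-34691526. Capitals mark motif matches.
CXCL10: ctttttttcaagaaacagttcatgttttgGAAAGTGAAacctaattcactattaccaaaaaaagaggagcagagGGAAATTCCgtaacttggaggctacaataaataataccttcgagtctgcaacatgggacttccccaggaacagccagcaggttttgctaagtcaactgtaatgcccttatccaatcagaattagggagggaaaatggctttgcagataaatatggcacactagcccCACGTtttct
CCL19: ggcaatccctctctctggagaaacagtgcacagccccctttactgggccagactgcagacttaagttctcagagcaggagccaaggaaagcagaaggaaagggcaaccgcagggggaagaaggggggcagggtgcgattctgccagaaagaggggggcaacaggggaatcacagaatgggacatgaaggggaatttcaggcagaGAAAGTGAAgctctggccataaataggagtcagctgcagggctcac
CXCL10 holds the core of the interferon-stimulated response element, GAAANNGAA, from position -221, the NF-kB motif GGNNTTTCC on the other strand from -176, and the hypoxia response core ACGTG on the other strand from -10. CCL19 holds the interferon-stimulated core from -46. Searched on both strands, GAAANNGAA is in 7.06% of 27305 promoters of this length, GGNNTTTCC in 5.48% and ACGTG in 18.7%. Of the 6 chemokines called lower in sh003, 3 held the interferon-stimulated core (CCL19, CXCL10 and CXCL2) and 3 the NF-kB motif (CXCL10, CXCL2 and CXCL8). Of 8 promoters found for class I antigen presentation genes called lower, 4 held the interferon-stimulated core (HLA-F, B2M, TAP2 and PSMB10) and 1 the NF-kB motif (B2M). Of 5 promoters found for NF-kB genes called lower, 1 held the NF-kB motif (ICAM1) and 0 the interferon-stimulated core. A match is a description of these letters and does not show binding. Only exact matches of these patterns were counted, so a promoter without a match can still hold another spelling of the motif.

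The tested chemokines were mostly higher in sh004 spheres. Of 9 tested of 21 listed, 6 were lower in sh003 (background 16.8%), with a median difference of -3.24 against 0.127 for all genes. Besides CCL19 and CXCL10 these were the neutrophil attractants CXCL8 and CXCL2, the monocyte attractant CCL7 and the stromal factor CXCL12. CCL19, CXCL8 and CXCL2 reached 1 RPKM in the sh004 spheres alone. Genes were tested only at 1 RPKM or more in 2 or more libraries, so the filter partly set this count and median. CXCL8 was at 0.0227 RPKM in the control, at 0.255 and 0.0158 in sh003 and at 3.93 and 11.3 in sh004 (difference -3.54, adjusted p = 0.0089). CCL21, which shares the receptor of CCL19, was also among the 15 called genes with the largest fall, at 0.264 and 0.039 RPKM in sh003 and 20 and 6.70 in sh004.

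Some NF-kB genes differed widely between the shRNAs of sh003. CCL2, the main monocyte attractant, was at 13.1 RPKM in the control, at 1960 and 13.7 in sh003 and at 2250 and 1620 in sh004. The sh003 shRNA 1 spheres thus held a level like that of sh004 and the shRNA 2 spheres a level like that of the control. The difference was -3.52 ± 2.03 and was not called (adjusted p = 0.20). TNF, an inflammatory cytokine, also had a wide gap within sh003 but no overlap with sh004, at 18.5 and 0.0215 RPKM in sh003 and 23.0 and 28.4 in sh004 (adjusted p = 0.14). BIRC3, an inhibitor of apoptosis and a feedback gene of the pathway, overlapped like CCL2, at 11.1 and 0.433 against 11.5 and 9.50 (adjusted p = 0.23). RELB and NFKB2, the subunits of the non-canonical pathway, reached 56.5 and 71.9 RPKM with sh003 shRNA 1 and 2.90 and 14.1 with shRNA 2, against 135 to 160 and 107 to 148 in sh004 (adjusted p = 0.060 and 0.064), without overlap. CCL2, TNF, BIRC3, RELB and NFKB2 are named here after their values were seen, for this split.

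Of 18 tested NF-kB genes 17 had a negative difference and 6 were called lower in sh003, and without sh003 shRNA 1 it was 15. Those 6 were the adhesion molecule ICAM1, the cytokine IL1B, the adaptor TRAF1, the mitochondrial dismutase SOD2 and the feedback inhibitors NFKBIE and TNIP1. SOD2 had the smallest adjusted p of them, at 4.58 RPKM in the control, 7.27 and 6.48 in sh003 and 42.9 and 31.6 in sh004 (difference -2.34 ± 0.22, adjusted p = 0.0087). ICAM1 was at 10.3 and 0.738 RPKM in sh003 and at 40.7 and 35.5 in sh004 (adjusted p = 0.03). IER3, an early response gene induced by NF-kB, behaved likewise at 15.8 and 0.744 against 160 and 177, with the control at 0.437 (difference -5.22 ± 1.07, adjusted p = 0.015).

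**Figure D3:**
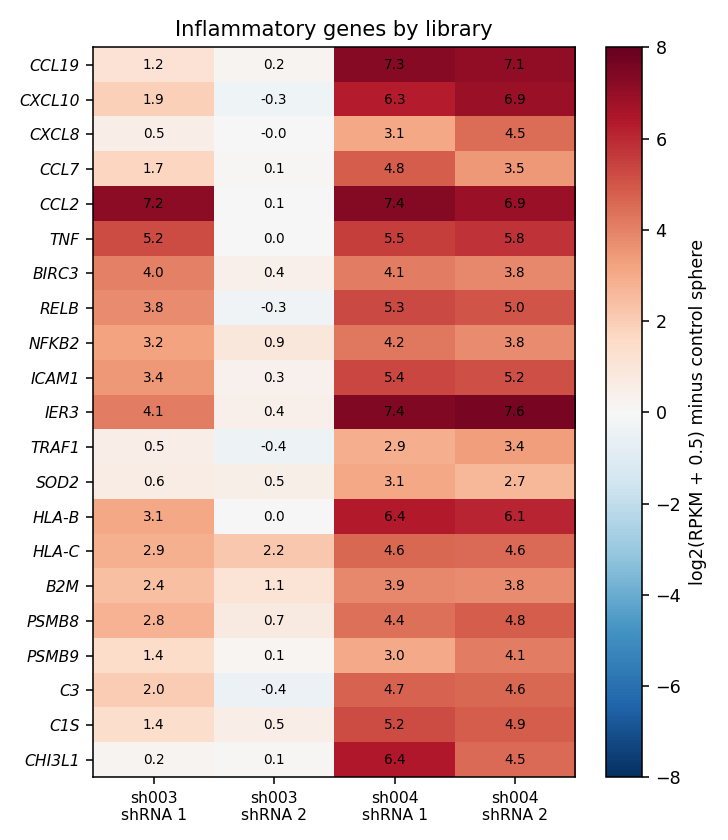
Level of 21 inflammatory genes in each knockdown sphere library as log2(RPKM + 0.5) minus that of the control sphere. Both sh004 columns are high throughout, and the sh003 shRNA 1 column is high for CCL2, TNF, BIRC3 and RELB while the shRNA 2 column is near 0 for them.

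Class I antigen presentation had the largest share called of the 5 inflammatory lists. Of 14 tested members 11 were lower in sh003, against a background of 16.8%, with a median of -1.87. They include the heavy chains HLA-B, HLA-C, HLA-E and HLA-F, the light chain B2M, the immunoproteasome subunits PSMB8, PSMB9 and PSMB10, the peptide transporter TAP2 and the regulator NLRC5. HLA-B was at 0.445 RPKM in the control, at 7.47 and 0.478 in sh003 and at 77.9 and 63.8 in sh004 (difference -4.67 ± 0.88, adjusted p = 0.012). B2M was at 30.0 in the control, 162 and 63.7 in sh003 and 446 and 427 in sh004 (adjusted p = 0.014). In each of these the control was lowest and sh003 shRNA 1 lay between shRNA 2 and the sh004 spheres. HLA-C was nearer to even within sh003, at 52.8 and 33.1 RPKM against 177 and 173 (control 6.89, adjusted p = 0.0087). Reads of these class I genes can be split between near-identical copies by the counting, so the single heavy chains are uncertain. ERAP1, the peptide-trimming enzyme, had a difference of 0.39 (adjusted p = 0.43).

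Complement genes followed. Of 11 tested of 17 listed complement and acute phase genes 8 were lower in sh003, with a median of -2.35. Of these, CHI3L1, CHI3L2, LCN2, C1R and CFB reached 1 RPKM in the sh004 spheres alone and so entered the test through them. C1S, a protease of the classical pathway, was at 0.137 RPKM in the control, at 1.19 and 0.428 in sh003 and at 23.3 and 18.1 in sh004 (difference -4.07 ± 0.35, adjusted p = 0.0078). C3, the central component, was at 2.54 and 0.0432 in sh003 and 18.9 and 17.3 in sh004 (adjusted p = 0.012). The others were its partner C1R, factor B (CFB), the inhibitor CD59, the iron-binding protein LCN2 and the chitinase-like CHI3L1 and CHI3L2. C7, a part of the membrane attack complex, went apart from them: it was at 9.34 and 171 RPKM in sh003 and 4.56 and 11.4 in sh004 (adjusted p = 0.16).

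Interferon-stimulated genes moved less. Of 17 tested 7 were lower in sh003 and 1 was higher, with a median of -0.75. IFI6 was at 29.4 and 34.8 RPKM in sh003 and 78.5 and 96.6 in sh004, with the control at 20.1 (adjusted p = 0.0088). IRF7, a transcription factor that amplifies the interferon response, was at 8.01 and 4.54 against 20.6 and 21.3 (adjusted p = 0.0098), and the other called members were BST2, IFI35, IFIH1, IFI44 and ISG15. The exception was USP18, which removes ISG15 from proteins, at 6.56 and 15.4 RPKM in sh003 and 3.17 and 3.85 in sh004 (adjusted p = 0.033). The medians of all 5 inflammatory lists were negative under each of the 5 other scalings tried, the deposited values included. TRAF1, HLA-F, NLRC5 and IFI35 also reached 1 RPKM in the sh004 spheres alone, so the filter bears on all 5 lists.

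Other secreted and metabolic genes led the sh004 side. HSD11B1, which reactivates cortisone to cortisol, was at 0 RPKM in the control, 0.659 and 0 in sh003 and 52.6 and 20.9 in sh004. G0S2, an inhibitor of the lipase ATGL, was at 3.98 and 1.54 RPKM in sh003 against 145 and 84.7, and PTGDS, the prostaglandin D synthase, at 24.7 and 0.909 against 258 and 149. AGT, the angiotensin precursor, was at 1.26 and 0.707 against 37.3 and 29.4, with the control at 4.49. The differences of these 4 genes ran from -4.53 to -5.47. The 4 were picked from the called genes for a large fall without overlap. Their call, size and lack of overlap therefore follow from that choice and are no separate result. CEBPD and CEBPB, transcription factors of the acute phase response, were also lower in sh003, CEBPD at 4.41 and 0.876 RPKM against 82.5 and 25.2 and CEBPB at 7.56 and 4.90 against 57.0 and 20.7.

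Genes of the hypoxia response were higher in sh003. Of 19 tested 11 were higher (background 23.1%) and 1 was lower, with a median of 0.92. Besides VEGFA they include CA12, a carbonic anhydrase, PFKFB3 and PFKFB4, which set the level of a glycolysis activator, the mitophagy receptors BNIP3 and BNIP3L, the lipid droplet protein HILPDA and the oxygen sensor EGLN1. CA12 reached 1 RPKM in the sh003 spheres alone and so entered the test through them. BNIP3 was at 18.0 RPKM in the control, 31.8 and 48.6 in sh003 and 20.3 and 15.8 in sh004 (difference 1.11 ± 0.26, adjusted p = 0.021). P4HA1, a collagen prolyl hydroxylase, was at 11.4 in the control, 23.3 and 46.2 in sh003 and 13.2 and 13.9 in sh004 (adjusted p = 0.029). In both the sh003 shRNA 2 value was highest and the sh004 values were near the control. ANGPTL4, a lipoprotein lipase inhibitor, went the other way at 5.93 and 8.40 RPKM against 28.6 and 20.6 (adjusted p = 0.0089). Without sh003 shRNA 2, 2 members were called higher.

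Glycolysis split within the pathway. Of 19 tested genes 8 were higher in sh003 and 1 was lower. The higher ones were the glucose transporter SLC2A1, the first enzyme HK2, the phosphofructokinases PFKM and PFKP, PGK1, ENO2, the lactate dehydrogenase LDHA and PDK1, which shuts pyruvate out of the mitochondrion. HK2 was at 15.4 RPKM in the control, 26.7 and 40.7 in sh003 and 6.57 and 6.72 in sh004 (difference 2.23 ± 0.25, adjusted p = 0.0087). LDHA was at 45.0, at 56.1 and 111 and at 23.1 and 22.8 (difference 1.76 ± 0.33, adjusted p = 0.012). For both the control lies between the groups. PFKL, the liver phosphofructokinase, was lower at 24.9 and 18.2 RPKM against 40.8 and 35.8, and the abundant ENO1, TPI1 and PKM had differences from -0.44 to -0.67 that were not called. The median of 0.65 became 0.14 with the length trend removed and -0.13 on the deposited values.

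A part of the cell cycle genes was higher in sh003, beside the inhibitor CDKN1C. Of 32 tested 13 were higher (background 23.1%), with a median of 0.56, and 9 had a negative difference. The summed level of the list overlapped, at 1060 and 852 RPKM in sh003 and 743 and 928 in sh004, with the control at 1150. TOP2A, the topoisomerase of dividing cells, was at 39.4 RPKM in the control, 56.4 and 78.3 in sh003 and 14.5 and 18.9 in sh004 (difference 1.97 ± 0.24, adjusted p = 0.0087). The mitotic checkpoint kinase gene BUB1B was at 15 and 17.2 against 3.76 and 5.60, with the control at 14.6, and the proliferation marker MKI67 at 17.6 and 21.3 against 5.08 and 10.4, with the control at 15.9. For BUB1B and MKI67 the control was close to sh003 and the sh004 spheres were low. The other called members are CCNA2, CDK1, AURKA, BUB1, PLK1, TTK, MCM4, RRM1, RRM2 and FOXM1. CCND1, the cyclin that starts the cycle, was at 69.7 and 56.3 RPKM against 26.7 and 27.2 (control 52.6, adjusted p = 0.0093). With the length trend removed 15 members were higher. Without sh003 shRNA 1, 10 were higher and 3 lower.

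The MYC network gave 4 higher and 1 lower of 12 tested. MYCL, a paralogue of MYC, was at 2.25 and 2.59 RPKM in sh003 and at 0.245 and 0.572 in sh004, and the MYC antagonist MXI1 was higher too (difference 1.99 ± 0.27, adjusted p = 0.0088). MYCL reached 1 RPKM in the sh003 spheres alone, so it entered the test through them. MYCN, the oncogene amplified in some neuroblastomas but not in this line, was at 8.09 and 3.56 against 4.05 and 2.83 (difference 0.60, adjusted p = 0.25). Of 19 nucleolar and growth genes that MYC activates, 5 were higher and 2 lower. POLR1B, a subunit of RNA polymerase I, was higher at 15.7 and 18.5 RPKM against 6.28 and 7.14, and RRP9, a snoRNP protein, was lower at 20 and 16.5 against 43.6 and 58.6. Ribosomal protein genes were lower in sh003, 11 of 26 with a median of -0.53, but under quantile scaling the median was 0.02.

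Cholesterol synthesis held 10 of 19 genes higher in sh003 and 2 lower, with a median of 0.92. HMGCS1, an early enzyme of the pathway, was at 19.8 and 45.5 RPKM in sh003 and at 6.98 and 9.39 in sh004. Its control level of 24.1 lies within the range of sh003. MVD and NSDHL, which act later in the pathway, were lower in sh003, MVD at 13.8 and 15.2 RPKM against 27.7 and 37.2. With the length trend removed 4 were higher and 3 lower. Amino acid stress genes driven by ATF4 had 6 of 19 lower and 1 higher, with ATF5 at 3.34 and 2.36 RPKM against 11.7 and 15.1 (adjusted p = 0.0087).

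**Figure D4:**
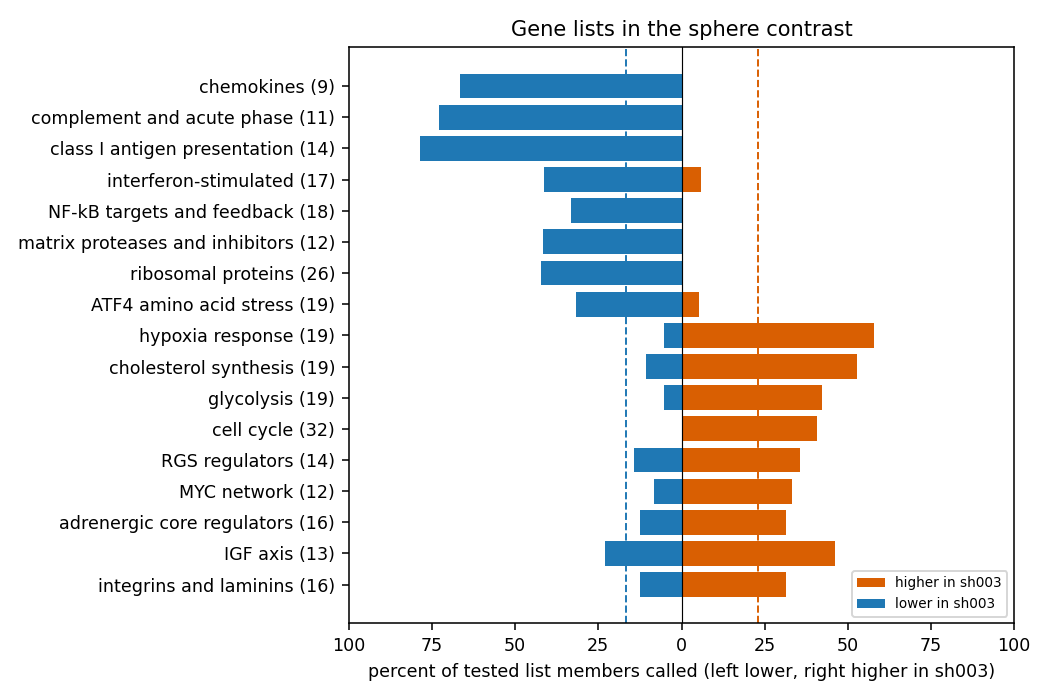
Percent of the tested members of each gene list that were called, higher in sh003 to the right and lower to the left, with the number tested in brackets. Dashed lines mark the shares over all genes, 23.1% and 16.8%. The 5 inflammatory lists extend left of theirs, as do matrix proteases, ribosomal proteins, ATF4 genes and the IGF axis. Hypoxia, cholesterol, glycolysis and cell cycle extend right of theirs, as do the RGS, MYC network, adrenergic, IGF and integrin lists.

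Sympathoadrenal regulators differed in both directions. GATA2, which acts with GATA3 in sympathetic neurons, was at 7.82 RPKM in the control, 19.4 and 108 in sh003 and 4.22 and 3.60 in sh004 (difference 3.40 ± 0.72, adjusted p = 0.016). The sh003 values are far apart and both exceed all others. TFAP2B was even within the groups at 57.8 and 60.4 RPKM against 15.6 and 18.3, with the control at 40.6 (difference 1.77 ± 0.18, adjusted p = 0.0087). TBX2, a T-box repressor, went the other way: it was at 24.2 in the control, 26.9 and 25.8 in sh003 and 73.6 and 39.6 in sh004 (difference -1.02 ± 0.30, adjusted p = 0.04). In all, 5 of 16 adrenergic regulators were higher in sh003, the others being GATA3, KLF7 and SIX3, and 2 were lower. The list's median of 0.48 was -0.10 on the deposited values.

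Genes of catecholamine synthesis and storage were called at about the background rate: of 16 tested, 4 were higher in sh003 (background 23.1%) and VGF was lower. SLC18A1, the vesicular amine transporter of chromaffin cells, was at 3.23 RPKM in the control, 15.3 and 28.4 in sh003 and 0.766 and 1.72 in sh004 (difference 3.67 ± 0.39, adjusted p = 0.0087). DBH, the enzyme that makes noradrenaline, was at 74.4 in the control, 251 and 410 in sh003 and 91.3 and 57.9 in sh004 (difference 2.13 ± 0.32, adjusted p = 0.0089). For DBH the sh004 values lie on both sides of the control and the sh003 values above it. CHGB, a granule protein, was at 93.5 and 358 RPKM against 22.3 and 26.8 (adjusted p = 0.014). CHGA, its partner, split the sh003 shRNAs at 2410 and 482 RPKM, against 1810 and 2610 in sh004 (adjusted p = 0.28). SLC18A2, the other vesicular amine transporter, had a difference of 0.77 (adjusted p = 0.11). Of the 12 identity genes of neuroblastoma, all tested, 3 were higher (GATA3, DBH and CHGB), and their summed level was 2290 RPKM in the control, 2650 to 4270 in sh003 and 3170 to 3890 in sh004. TH, the first enzyme of catecholamine synthesis, was low throughout, at 3.34 RPKM in the control, 2.11 and 0.777 in sh003 and 0.348 and 0.0221 (70 and 2 reads) in sh004.

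Neuronal genes were mixed. MAP2, a dendrite protein, was at 10.4 and 12.4 RPKM in sh003 and at 4.55 and 4.15 in sh004, with the control at 18.8 above both (adjusted p = 0.0091). STMN4, a tubulin-binding protein, was at 16.1 in the control, 0.944 and 0.306 in sh003 and 12.0 and 11.7 in sh004 (difference -3.52 ± 0.31, adjusted p = 0.0084). Here the sh004 spheres were near the control and the sh003 spheres low. DLK1, an imprinted membrane protein of immature sympathoadrenal cells, was at 437 RPKM in the control, 1420 and 870 in sh003 and 229 and 140 in sh004 (difference 2.63 ± 0.34, adjusted p = 0.0087). The receptors NOTCH1, NOTCH2 and NOTCH3 were higher in sh003. NOTCH3 was at 29.9 and 32.3 against 11.6 and 11.4. NOTCH1 was at 10.4 and 8.07 against 4.48 and 3.48, with the control at 0.889. Of 13 tested Notch pathway genes 4 were higher and 1, HES4, was lower, with a median of 0.03. With the length trend removed 3 were higher and 2 lower. LIN28B and MSI1, RNA-binding proteins of progenitor cells, were higher in sh003, with LIN28B at 8.51 and 7.25 RPKM against 3.39 and 2.16. Of 11 tested sphere and stem cell markers 3 were higher, DLK1 among them, and CXCR4 was lower. NES, of the same list, had a difference of -0.88 (adjusted p = 0.077).

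Of the family of RGS4, 5 of 14 tested members were higher in sh003 and 2 lower. RGS5, the most abundant, was at 431 RPKM in the control, 928 and 1560 in sh003 and 164 and 279 in sh004 (difference 2.49 ± 0.35, adjusted p = 0.0088). RGS7, RGS17 and RGS19 were also higher, while RGS16 was lower at 18.5 and 10.9 against 37.5 and 25 and RGS3 at 1.15 and 0.644 against 3.65 and 2.18. The family thus did not move one way, and its median of 0.13 was near that of all genes. SPRED2, an inhibitor of the RAS and ERK pathway, was higher in sh003 at 22.3 and 21.2 RPKM against 5.63 and 3.59 (adjusted p = 0.0087), and HGF, the ligand of the MET receptor, at 8.67 and 31.0 against 1.05 and 1.43 (adjusted p = 0.01). The water channel AQP1, the secreted synaptic protein OLFM1, the synapse organiser ELFN1 and the acetylcholine receptor subunit CHRND were the other protein-coding genes among the 15 with the largest rise. The remaining 5 there were small or unnamed RNAs, such as MIR186 and SNORD117, whose reads cannot be told from those of the genes that hold them.

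IGF axis genes were called in both directions. The receptors IGF1R, IGF2R and INSR were higher in sh003, IGF1R at 24.5 and 30.5 RPKM against 12.2 and 10.0 (adjusted p = 0.01). IGF2BP3, a fetal RNA-binding protein, was at 11.8 and 12.9 in sh003 and 1.43 and 1.90 in sh004, with the control at 5.80 (difference 2.58 ± 0.22, adjusted p = 0.0079). The binding proteins went both ways: IGFBP3 and IGFBP2 were lower in sh003, and IGFBP5 was higher, at 4.73 and 10.1 RPKM against 1.68 and 1.46 (difference 1.85, adjusted p = 0.013). IGFBP3 was at 1.06 RPKM in the control, 3.78 and 3.76 in sh003 and 92.1 and 55.9 in sh004 (difference -4.08 ± 0.27, adjusted p = 0.0076). The growth factor IGF2 itself overlapped, at 729 and 565 against 952 and 458. Of 13 tested, 6 were higher and 3 lower, but with the length trend removed 2 and 2 were.

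Matrix proteases and their inhibitors were lower in sh003, 5 of 12 tested, with a median of -0.76. TIMP1, a metalloprotease inhibitor, was at 17.2 RPKM in the control, 20.1 and 7.16 in sh003 and 107 and 83.7 in sh004 (adjusted p = 0.009), and the protease gene MMP9 at 0.209 and 0.0925 against 2.19 and 3.39. MMP9 reached 1 RPKM in the sh004 spheres alone and so entered the test through them. TNC, the matrix protein tenascin C, was at 2.40 and 1.87 in sh003 and 21.4 and 12.7 in sh004, with the control at 4.49 (difference -2.70 ± 0.30, adjusted p = 0.0087). LAMB3, a laminin chain of epithelia, was at 0.514 and 0.0768 against 13.2 and 18.2, while LAMC1 and LAMB1 were higher in sh003, LAMC1 at 34.5 and 57.9 against 13.9 and 16.1. For integrins and laminins the count turned from 5 higher and 2 lower of 16 to 1 and 4 with the length trend removed, and the median from 0.38 to -0.26. ITGA2, among those 5, reached 1 RPKM in the sh003 spheres alone and so entered the test through them.

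Genes commonly used for scaling were not even. Of 14 reference genes 4 were higher in sh003, TFRC, PGK1, TBP and YWHAZ, and 4 lower, among them B2M and RPLP0. YWHAZ had a difference of 0.56, and of -0.02 with the length trend removed. ACTB was at 987 and 651 RPKM against 948 and 858 (adjusted p = 0.61).

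Markers of other cell types were mostly low, and some lists stood apart from the control. Summed over the list, the 10 leukocyte markers reached 3.08 to 3.22 RPKM in sh003, 4.16 to 5.57 in sh004 and 4.17 in the control, 1 of them had no read in any sphere library, and the 2 tested, CD8A and CD14, had adjusted p of 0.25 and 0.12. The 8 endothelial markers reached 1.31 to 3.22 RPKM in sh003 and 3.66 to 3.72 in sh004, with the control at 5.29, 2 tested and ESAM lower in sh003. The 8 epithelial markers reached 3.04 to 12.4 in sh003 and 5.25 to 6.71 in sh004, all above the control at 1.79, with 1 tested and not called. Of the Schwann cell markers, S100B and PMP22 were tested and both were lower in sh003, with a summed list level of 26.3 to 37.5 RPKM against 62.6 to 79.6 and 49.1 in the control. Of 7 fibroblast markers tested, PDGFRB was higher in sh003 and ACTA2 and COL3A1 lower, at a summed level of 90.4 to 123 RPKM against 108 to 130, with the control at 119. The leukocyte sums in sh004 were thus on both sides of the control's. The part of other cell types in the results was not tested.

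The control sphere mostly lay between the knockdowns. Of the 3395 genes higher in sh003, the control was between the group means for 3016, above both for 252 and below both for 127, and it was nearer to sh003 for 60.6%. Of the 2470 lower in sh003 it lay between for 2010, above both for 172 and below both for 288, and was nearer to sh004 for 59.0%. With 1 control library this position has no replicate check. RGS4, CDKN1C and MYC have the control nearer to sh003, and VEGFA, DBH and SLC18A1 nearer to sh004.

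In monolayers the same contrast gave few calls. At day 0, in serum, 3 sh003 libraries were set against 2 of sh004, and 1 of 19461 genes was called (0.00514%). At day 7, after retinoic acid, 3 against 2 gave 4 calls (0.0206%), and 139 (0.714%) with the batch number of the titles as a block. All sh004 monolayers are of batch 2, so batch and knockdown are partly joined. Libraries were grouped by title, against which a differentiation tag of 1 sh003 library speaks on each day. Without it, the count was 0 at day 0 (813 at an unadjusted p under 0.05) and 56 at day 7. The sphere and monolayer tables were fitted separately and no difference between them was tested. Of 5715 genes called in the spheres and tested in both, 39.9% had the same sign at day 0, 49.9% at day 7 and 53.3% in the batch 2 libraries of day 7, against 44.7%, 50.4% and 52.4% of all 14247 genes tested in both. The share of called genes with the same sign was thus near that of all genes in each case, and both were lowest at day 0.

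Some leading genes had the same direction. RGS4 at day 7 was at 207, 141 and 278 RPKM in sh003 and at 93.0 and 73.5 in sh004, with controls at 82.5 and 50.2. The groups do not overlap, and sh003 was above both controls, but the difference of 1.28 ± 0.33 was not called (adjusted p = 0.23, and 0.074 with the batch block). CXCL10 at day 7 was at 0.0261, 0.259 and 0.123 in sh003 and at 31.7 and 10.1 in sh004, with a difference of -4.88 ± 1.47 (adjusted p = 0.27, and 0.037 with the block). C3 was likewise 0.14 or less in sh003 and 38.1 and 16.9 in sh004 (block adjusted p = 0.0082). At day 0 the inflammatory lists leaned the other way, with 9 of 9 complement, 14 of 15 interferon-stimulated and 16 of 18 NF-kB genes positive and none called. CCL2 at day 0 varied within every group: it was at 910 RPKM in the batch 3 control and at 1.11 and 1.08 in the other controls, at 873 in the batch 3 sh003 library and 30.4 and 16.6 in the other sh003 libraries, and at 258 and 5.05 in sh004.

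Other groups ran opposite. All 32 cell cycle genes had a negative difference at day 0 and at day 7, with medians of -0.65 and -1.10, against 0.56 in spheres. DLK1 at day 0 was at 22.5, 82.0 and 69.8 RPKM in sh003 and at 572 and 308 in sh004 (difference -3.04 ± 1.10, adjusted p = 0.65), the reverse of its order in spheres. MYC was at 11.0, 7.00 and 6.88 RPKM at day 0 in sh003 and 12.6 and 17.7 in sh004 (difference -0.85 ± 0.47, adjusted p = 0.76). HGF had the direction of the spheres, at 19.4, 52.5 and 36.0 against 6.47 and 8.37 at day 0 (adjusted p = 0.57). The 26 ribosomal protein genes were negative throughout, in spheres 24 of them, with medians of -0.45 and -0.68 in monolayers. CDKN1C and VEGFA overlapped between the knockdowns on both days, and CCL19 and CHI3L1 were too low in monolayers to be tested.

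For class I genes the batch 1 monolayers stood apart. In the 4 batch 1 monolayers 9 of the 14 list members, among them HLA-B, HLA-C and TAP1, were below 0.1 RPKM and above it in all other libraries, and 166 genes of the whole table were at 0 there and at 1 RPKM or more elsewhere. Within batch 2 at day 7, HLA-B was at 1.24 and 3.03 RPKM in sh003 and at 8.07 and 11.7 in sh004, and the list's median was -0.28 with 9 of 13 members negative.

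**Figure D5:**
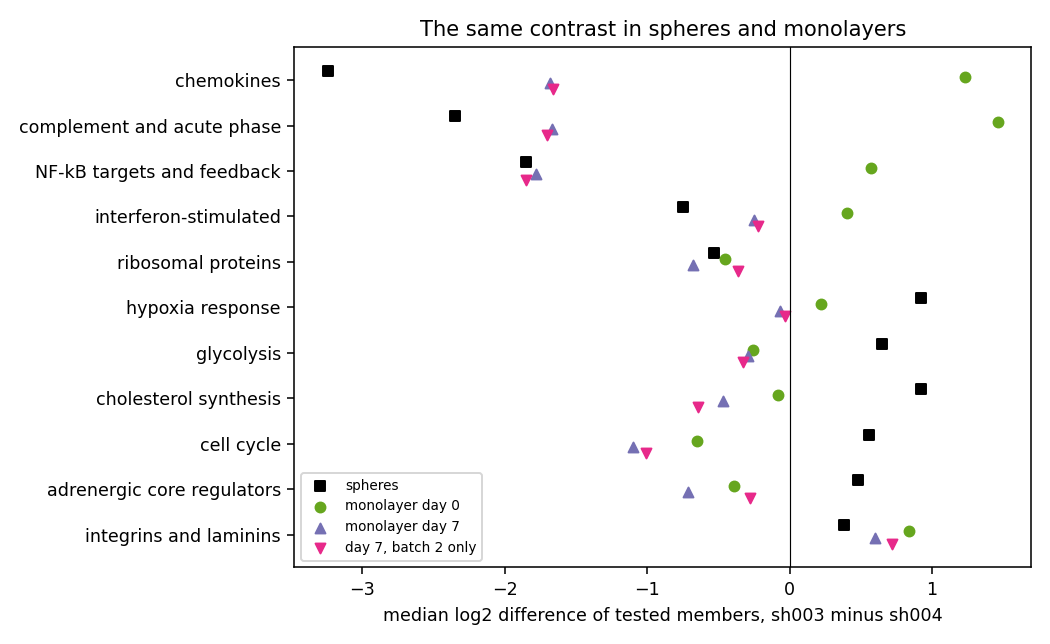
Median difference between sh003 and sh004 (log2) of the tested members of 11 gene lists in spheres, in monolayers at day 0 and day 7, and in the batch 2 libraries of day 7. Chemokines and complement are negative in spheres and at day 7 but positive at day 0, and the cell cycle list is positive in spheres only among these 4.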

How the data were processed

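Total RNA of SH-SY5Y spheres and monolayers was sequenced with a stranded kit that removes ribosomal RNA, per the labels' protocols. The submitters' processing notes name TopHat, featureCounts, Subread and hg19, with no versions or annotation release. The values deposited by the authors are RPKM for 63677 genes. Whole reads were recovered from them with gene lengths: 100% of values above 0 came within 0.01 of a whole number. In the sphere table this needed 10 totals in rotation from gene to gene, so sphere RPKM was recomputed from the reads with each library's own total. The main test used RPKM computed from these reads and not the read counts themselves, because the deposited unit is RPKM.

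Genes at 1 RPKM or more in 2 or more libraries were kept, 14711 in spheres and 19461 in monolayers. limma 3.58.1 in R 4.3.3, with a mean-variance trend, was fitted to log2(RPKM + 0.5) over all groups of a table (2 residual and 4.22 prior degrees of freedom in spheres), with Benjamini-Hochberg adjustment over all genes tested and a threshold of 0.05. The fit was tested on simulated data. Precision rests on 27.77 to 62.08 M reads per sphere library and on 2 libraries a group.

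Named genes are, on each side, the called genes with the 15 largest differences, given a mean of at least 2 RPKM in the higher group and no overlap, the 7 markers, the CASC15 list, and the called members and up to 4 others with the smallest p of each other list. The members and lists were chosen with earlier results of these data known. Of the gene identifiers 52526 matched a reference table and 11151 did not. Alternatives were other pseudocounts, filters, scalings and fits, the deposited values, the shRNA or batch number as a replicate block, each library left out, and, added after seeing the data, removal of the length trend. Some items are not reported here. The KELLY libraries were not used here, apart from the gene order of their table.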

Additional observations from a re-analysis of the deposited data

Results flagged for a closer look

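For the genes below, called in the spheres, all sh003 libraries lay above all sh004 libraries in one culture, spheres or monolayers of a day, and below all of them in the other. Values are monolayer differences (log2, sh003 minus sh004) and those in spheres. The change of direction was not tested, and none of these monolayer differences was called in the fit without the batch block.

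The cell cycle genes named here were higher in sh003 spheres and lower in sh003 monolayers. At day 0 the difference was -1.14 for AURKA, -0.99 for BUB1, -0.93 for BUB1B, -0.70 for CCNA2, -0.54 for CDK1 and -0.75 for FOXM1. It was -0.62 for MCM4, -1.13 for PLK1, -0.64 for RRM1, -0.77 for TOP2A and -0.90 for TTK. At day 7 it was -1.69 for AURKA, -1.51 for BUB1, -1.35 for BUB1B, -1.33 for CDK1 and -1.20 for FOXM1, and -0.83 for MCM4, -0.92 for RRM1, -1.18 for RRM2 and -1.60 for TTK. In spheres these genes stood between 0.85 and 1.97.

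MYC had -0.85 at day 0 and -1.54 at day 7 against 3.05 in spheres. The noradrenaline genes DBH (-1.42 and -2.59, spheres 2.13) and SLC18A1 (-1.11 and -1.07, spheres 3.67) and the membrane protein gene DLK1 (-3.04 and -3.47, spheres 2.63) were opposite on both days. So was the receptor subunit gene CHRND, with -0.23 and -1.80 against 3.25. The metabolic genes HK2 (-0.66 and -0.89), LDHA (-0.85 and -1.13) and PGK1 (-0.38 and -0.60) were negative on both days, PDK1 (-0.26) at day 0 and HILPDA (-0.31) at day 7, and PFKL was positive (0.54) at day 0.

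Interferon, class I and complement genes were positive at day 0 and negative in spheres: B2M 1.08, C1R 1.98, CD59 1.16, CXCL12 1.69, IFI44 1.39, IFI6 1.15, IRF7 0.54 and ISG15 1.14. NLRC5 was positive on both days, with 0.85 and 0.58, and the fits of B2M and NLRC5 include the batch 1 libraries. USP18 was at -1.08 at day 7 against 1.41 in spheres. Matrix and secreted proteins were also positive at day 0: TIMP1 1.72, TNC 1.72, IGFBP3 2.02, IGFBP2 0.78, COL3A1 1.52 and ANGPTL4 1.83. So were the smooth muscle actin gene ACTA2 (0.94) and the adhesion molecule gene ESAM (0.60).

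Of the regulators, KLF7 (-0.71) and IGF2BP3 (-0.48) were negative at day 0, TBX2 was positive on both days (0.45 and 1.06) and POLR1B negative (-0.43 and -0.32). The granule gene VGF was at 1.21 and 2.03 against -1.19 in spheres. At day 7, CHD7 had -0.56, LIN28B -0.92, MSI1 -0.83, TFRC -1.22, TBP -0.12 and the small RNA SNORD117 -1.56. YWHAZ had -0.47 at day 0.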

How the results depend on the processing

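The 5865 calls in spheres ranged from 5284 to 6082 under other pseudocounts, a stricter filter, median-ratio or quantile scaling, voom, no trend and the 4 knockdown libraries alone. They fell to 0 without a filter on low levels (34668 genes tested with limma, 9153 at an unadjusted p under 0.05) and to 366 on the deposited RPKM, 54 higher and 312 lower. Leaving out 1 library gave 26 to 5971. With the length trend removed 4280 were called, 46.2% of them higher in sh003 against 57.9% before, and the median of all genes moved from 0.127 to 0.014. The shRNA number pairs different shRNAs, and same-numbered libraries did not deviate together (r = -0.0454 across genes). With it as a replicate block 5396 genes were called.

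At day 0 the count was 1 with the batch number as a replicate block and with pseudocount 1, and 0 without any 1 of the libraries (621 to 1876 at an unadjusted p under 0.05). At day 7 the 4 calls became 139 with the replicate block, 8 with pseudocount 1, 5 in batch 2 alone and 0 to 339 without 1 library. Of the named genes called higher, the difference turned negative on the deposited values for HSPD1 (-0.07), PFKM (-0.08), PLK1 (-0.27), RARB (-0.15) and STC2 (-0.11), and with the length trend removed for YWHAZ (-0.02). The deposited values differ by their rotating totals. The cause of the other changes was not tested. In leave-outs the remaining library of a pair is assumed to vary like the other groups.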
